A study of Mus musculus with 4 samples.

Results

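Neutrophils that lacked an interferon program were taken from a single-cell RNA survey of mouse prostate, and they made up 1697 of 31165 cells kept after filtering. They were chosen by their own RNA. A cell needed at least 20 UMIs (unique molecular identifiers, 1 per captured RNA molecule) per 10000 from S100a8, S100a9, Csf3r and Cxcr2 together. It also needed at least 1 UMI of Csf3r or Cxcr2, which encode the receptors for granulocyte colony-stimulating factor and for CXC chemokines. Cells with 5 or more UMIs per 10000 of the macrophage complement genes C1qa, C1qb and C1qc were left out, and so were cells with 5 or more per 10000 of Rsad2, Ifit1, Ifit3 and Isg15, the interferon-induced genes. The 1065 neutrophils that failed only this interferon limit are called interferon-high here, and both kinds together made up 2762 cells.

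Dissociated prostates were profiled in droplets with a 10x Chromium 3' kit, and each of 4 groups gave 1 library. The groups, with mouse age, were Trp53-deleted ADT (5.5 months), Trp53-deleted (3.5 months), Trp53-intact ADT (5.5 months) and Trp53-intact (4 months). The labels mark the Trp53 deletion as restricted to the prostate (PC), so neutrophils are not the cells in which the gene was targeted. The rest of the genotype is shared by all groups and is not reported here, and ADT is read as androgen deprivation therapy, which the labels do not spell out. The sources used here do not say whether a library pooled several mice. ADT went with older age and genotype with library, so these cannot be told apart, and no test between groups could be made. Every difference below is a difference between 2 libraries, its interval covers counting error only, and fewer cells of a kind cannot be told apart from more of the others in a share.

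Neutrophils are short-lived granulocytes made in bone marrow, where they fill their granules in a fixed order: azurophilic granules first, then specific granules, then gelatinase granules. CXCR4 holds them in the marrow and CXCR2 draws them out and into inflamed tissue. In tissue they switch on interleukin 1 beta, CXC and CC chemokines and prostaglandin enzymes, largely through the transcription factor NF-kB, which also induces its own inhibitors. In mouse tumours some neutrophils carry an interferon program and others, such as those described here, do not.

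The promoters of 5 genes are shown because the NF-kB inhibitor genes Nfkbia, Nfkbie and Tnfaip3 and the gene Ptgs2 differed between the Trp53-deleted libraries described below, and because Cxcl2 is a textbook NF-kB target that the cells hold in large amounts. The letters are the 250 bases before the transcription start, from RefSeq on build GRCm38.p6, written 5' to 3' on the strand of the gene, and capitals mark matches to the NF-kB motif. The motif was searched on both strands as GGG, any 2 bases and then TTTCC or TTCCC, and matches of both forms at the same position count once. Nfkbia (chr12:55492648-55492897, minus strand) encodes the inhibitor that holds NF-kB in the cytoplasm. Nfkbie (chr17:45555450-45555699, plus strand) encodes another cytoplasmic inhibitor. Tnfaip3 (chr10:19015411-19015660, minus strand) encodes A20, which ends NF-kB signalling. Cxcl2 (chr5:90903649-90903898, plus strand) encodes a neutrophil-attracting chemokine, and Ptgs2 (chr1:150099781-150100030, plus strand) encodes the inducible prostaglandin synthase COX-2.
Nfkbia: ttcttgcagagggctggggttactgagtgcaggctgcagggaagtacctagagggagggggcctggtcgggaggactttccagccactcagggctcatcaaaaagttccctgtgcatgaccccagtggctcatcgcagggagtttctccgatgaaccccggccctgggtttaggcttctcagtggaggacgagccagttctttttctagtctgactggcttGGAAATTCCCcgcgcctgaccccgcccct
Nfkbie: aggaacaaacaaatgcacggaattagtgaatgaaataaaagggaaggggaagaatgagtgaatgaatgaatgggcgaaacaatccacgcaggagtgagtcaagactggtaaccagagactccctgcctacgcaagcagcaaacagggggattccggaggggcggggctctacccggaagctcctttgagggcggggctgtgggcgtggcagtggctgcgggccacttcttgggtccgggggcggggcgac
Tnfaip3: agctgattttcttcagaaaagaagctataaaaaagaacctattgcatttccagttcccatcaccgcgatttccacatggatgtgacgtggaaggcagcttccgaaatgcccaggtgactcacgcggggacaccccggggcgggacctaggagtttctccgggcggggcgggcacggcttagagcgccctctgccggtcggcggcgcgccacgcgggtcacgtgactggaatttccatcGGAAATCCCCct
Cxcl2: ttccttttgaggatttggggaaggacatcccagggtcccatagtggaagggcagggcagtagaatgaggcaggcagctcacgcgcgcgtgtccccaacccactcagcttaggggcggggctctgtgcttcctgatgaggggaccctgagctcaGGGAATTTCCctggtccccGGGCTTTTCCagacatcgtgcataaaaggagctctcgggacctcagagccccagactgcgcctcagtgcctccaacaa
Ptgs2: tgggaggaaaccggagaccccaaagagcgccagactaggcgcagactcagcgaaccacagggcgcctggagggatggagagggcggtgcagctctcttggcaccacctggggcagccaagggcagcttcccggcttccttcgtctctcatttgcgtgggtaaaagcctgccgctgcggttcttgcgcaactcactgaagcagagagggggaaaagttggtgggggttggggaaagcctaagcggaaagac
The match in Nfkbia began 29 bases before the start and that in Tnfaip3 12 bases before it. The Cxcl2 stretch held 2 matches, 97 and 78 bases before the start, and Nfkbie and Ptgs2 held none in this window. A second Tnfaip3 promoter in the table also held none. In windows of 300 bases that add the 50 bases after the start, 3.24% of 32851 mouse promoters held the motif. Counted by gene, over any of its promoters, 3.73% of 27025 genes held it, and so did 7 of the 16 NF-kB response genes found in the promoter table. The 7 were Bcl3, Nfkb2, Nfkbia, Nfkbid, Rel, Tnfaip3 and Tnip1. A match is a string of letters and no evidence of binding, and a window without one says nothing about the factor.

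The cells carried the neutrophil label by genes that the rule did not use. Of 12 such neutrophil markers, all were detected in Trp53-deleted ADT, Trp53-intact ADT and Trp53-intact members, and 11 in Trp53-deleted members, where Ly6g had no UMI. The summed level of the 12 was 11574, 15505, 14443 and 20032 CPM (UMIs per 1000000 UMIs of the summed cells) in Trp53-deleted ADT, Trp53-deleted, Trp53-intact ADT and Trp53-intact members. In all other kept cells outside the neutrophil selection it was 280, 408, 406 and 463 CPM in the same libraries. Ly6g, the classical surface marker of mouse neutrophils, was at 1.41, 0, 2.35 and 4.87 CPM, which is close to undetected everywhere. The 4 genes of the rule summed to 37866 CPM in Trp53-deleted ADT, 27570 in Trp53-deleted, 48173 in Trp53-intact ADT and 56640 in Trp53-intact members. These last values chose the cells and are given as a description.

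Several genes were far higher in the members than in the kept cells outside the neutrophil selection, which leave out the interferon-high neutrophils. G0s2, an inhibitor of the triglyceride lipase ATGL, stood at 3818, 5186, 3883 and 8167 CPM in Trp53-deleted ADT, Trp53-deleted, Trp53-intact ADT and Trp53-intact members, against 26.7, 62.4, 47.0 and 74.5 CPM in the other cells. In interferon-high neutrophils G0s2 stood at 2809, 4932, 3673 and 6469 CPM. Hdc, the enzyme that makes histamine, stood at 983, 2097, 2031 and 2166 CPM against 7.87, 33.1, 25.5 and 32.4. Trem1, an amplifier of inflammatory signalling, had 849, 971, 1174 and 880 CPM against 10.4, 13.4, 14.96 and 10.3. Acod1 (the itaconate-making enzyme), Il1r2 (the interleukin 1 decoy receptor), Clec4d and Clec4e (receptors for fungal and mycobacterial glycolipids) followed the same pattern. Of 15002 genes compared, 509 (3.39%) were at least 2-fold higher in the members in each of the 4 libraries and 514 (3.43%) at least 2-fold lower. The members were selected against these cells, so these counts describe the selection.

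Markers of other cell types were present in the members, most of them below the level in the other kept cells. Macrophage markers summed to 1342, 683, 553 and 693 CPM in Trp53-deleted ADT, Trp53-deleted, Trp53-intact ADT and Trp53-intact members, against 8891, 5710, 4448 and 10659 CPM in the other cells, and Cd163 had no UMI in members of the ADT libraries. Eosinophil markers were at 1.41, 3.14, 5.87 and 4.18 CPM, with Epx, Ear1 and Ear6 at 0 in every library. Monocyte markers summed to 482, 302, 177 and 161 CPM, and fibroblast markers to 925, 1893, 1305 and 945. Epithelial markers summed to 513, 403, 366 and 551 CPM in members, against 461, 1891, 2490 and 1967 in the other cells, so in Trp53-deleted ADT they were above the other cells. There the interferon-high neutrophils held 146 CPM. T cell markers were at 117, 48.2, 119 and 65.4 CPM, B cell markers at 17.0, 85.9, 77.5 and 9.05, dendritic cell markers at 99.0, 6.28, 94.0 and 99.5, and endothelial markers at 15.6, 53.4, 45.2 and 17.4. NK cell markers stood at 15.6, 48.2, 3.82 and 0.696 CPM, and mast cell and basophil markers at 12.7, 18.9, 28.2 and 16.7. The other cells held 18.3, 50.6, 46.7 and 19.9 CPM of NK cell markers and 12.0, 88.6, 42.2 and 90.3 of mast cell and basophil markers. Members of Trp53-deleted ADT and of Trp53-deleted were thus near the other cells in NK cell markers. Those of Trp53-deleted ADT were near them in mast cell and basophil markers too. For T cell markers the other cells held 151, 145, 385 and 109 CPM. Haemoglobin genes reached 15723, 3027, 78.7 and 4990 CPM, but a single cell held 98.8%, 88.7%, 36.6% and 98.2% of those UMIs and the median cell held none. Members whose UMIs of any such list reached 50 per 10000 numbered 6, 9, 31 and 9, and those among the highest doublet scores of their library numbered 16, 15, 61 and 27.

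Depth differed between the libraries. The members' median was 2608 UMIs per cell in Trp53-deleted ADT, 2704 in Trp53-deleted, 3557 in Trp53-intact ADT and 3302 in Trp53-intact, and their summed UMIs were 707099, 954728, 3404876 and 1436559. The deepest member held 27497, 44748, 53764 and 42977 UMIs in those libraries. Median mitochondrial shares were 3.48%, 1.45%, 1.91% and 3.04%. No cell barcode was shared between members of different libraries, and 112 barcodes were shared among all kept cells. The Trp53-intact ADT members are therefore the most precisely measured and the Trp53-deleted ADT members the least. Just inside the limit on the 4 neutrophil genes (20 to 25 per 10000) lay 6, 10, 13 and 6 members, and just outside it (15 to 20) lay 3, 3, 19 and 9 cells that met the other limits. Just inside the interferon limit (4 to 5 per 10000) lay 13, 17, 23 and 7 members, and just outside it (5 to 6) lay 3, 7, 32 and 14 neutrophils.

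Trp53, which encodes p53 (chromosome 11, 69580359 to 69591873, plus strand, GRCm38), was low in these cells in every library. It stood at 19.8 CPM in Trp53-deleted ADT, 35.6 in Trp53-deleted, 27.6 in Trp53-intact ADT and 20.2 in Trp53-intact members. In the other kept cells it stood at 37.5, 43.9, 70.1 and 47.4 CPM in the same order of libraries. A 3' count outside the deleted stretch would not report the deletion, so these values do not check the genotype labels. Of 20 p53 target genes, 12, 18, 15 and 16 were measured in the 4 comparisons below and 1 passed 2-fold in each, where 6.58%, 3.1%, 8.23% and 4.5% of all genes did, so the list stood near the background.

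The members made up 2.32% of kept cells in Trp53-deleted ADT (95% interval 2.03 to 2.64, 223 of 9626 cells), 5.51% in Trp53-deleted (4.94 to 6.14, 314 of 5694), 10.1% in Trp53-intact ADT (9.46 to 10.8, 785 of 7751) and 4.63% in Trp53-intact (4.19 to 5.11, 375 of 8094). With ADT the share differed by -3.198 percentage points in Trp53-deleted mice and by 5.49 points in Trp53-intact mice. Between genotypes, Trp53-deleted minus Trp53-intact, it differed by 0.882 points without ADT and by -7.81 points with ADT. The small difference without ADT was 0.013 points when cells needed at least 1000 UMIs and turned to -0.030 points when the neutrophil genes had to reach 100 per 10000. Among cells with a UMI of Ptprc, which encodes the pan-leukocyte protein CD45, the members made up 3.77%, 9.04%, 18.9% and 8.46% in Trp53-deleted ADT, Trp53-deleted, Trp53-intact ADT and Trp53-intact. The order of the 4 libraries was the same on both scales.

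**Figure D1:**
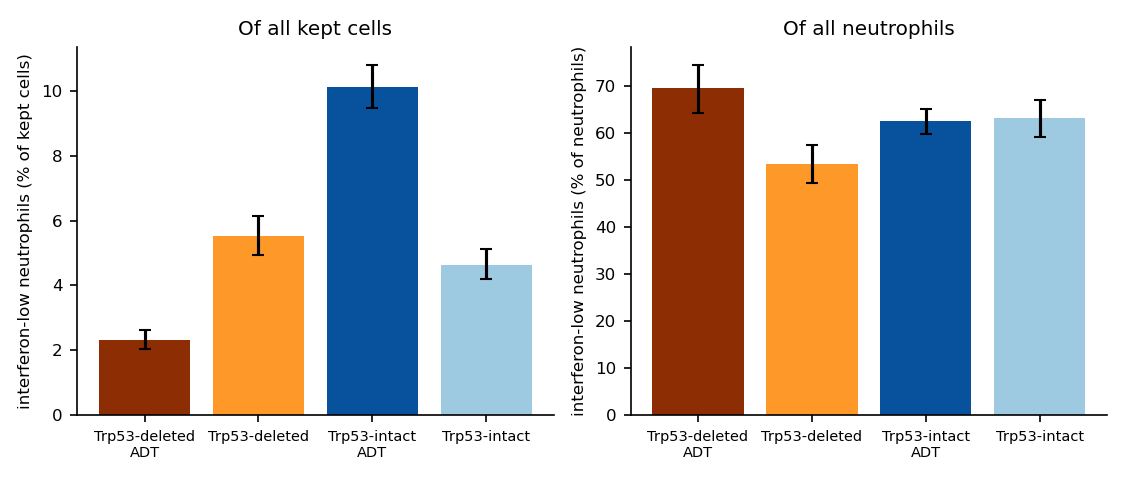
Left: members as a percentage of kept cells in each library. Right: members as a percentage of all neutrophils, interferon-high ones included; bars show percentages and lines exact 95% intervals for counting error. The share of kept cells was 2.32%, 5.51%, 10.1% and 4.63% from left to right, and the share of neutrophils was lowest (53.3%) in the Trp53-deleted library.

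Within the neutrophils the balance between the kinds varied less. Cells without the interferon program made up 69.5% of neutrophils in Trp53-deleted ADT (64.1 to 74.5), 53.3% in Trp53-deleted (49.2 to 57.4), 62.4% in Trp53-intact ADT (59.7 to 65.1) and 63.1% in Trp53-intact (59.1 to 67.0). After each cell was thinned to 1000 UMIs, neutrophils with no UMI of the 4 interferon genes made up 65.4%, 53.6%, 63.5% and 62.3%. The Trp53-deleted library thus held the lowest share on either scale, and the other intervals overlapped one another once thinned.

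Neutrophil precursors make granule proteins in turn in bone marrow. Elane and Mpo transcripts were almost absent from the members, while specific granule genes differed among themselves. Elane, the azurophilic protease neutrophil elastase, had no UMI in any of the 1697 cells, and such a count of 0 allows up to 3 UMIs per library. Mpo, which encodes the azurophilic enzyme myeloperoxidase, had 0, 0, 0.294 and 0.696 CPM in Trp53-deleted ADT, Trp53-deleted, Trp53-intact ADT and Trp53-intact members. Among specific granule genes, Camp (cathelicidin) had 0, 0, 3.23 and 1.39 CPM and Ngp (neutrophilic granule protein) 0, 1.05, 14.4 and 0.696. The specific granule gene Ltf (lactoferrin) was at 49.5, 103, 100 and 61.3 CPM, where the other cells held 41.7, 223, 273 and 151. Mmp9, which encodes the gelatinase of the last granules, was at 921, 1492, 771 and 710 CPM against 94.1, 61.1, 14.9 and 73.9 in the other cells. Other specific granule genes were better represented, with Hp at 553, 225, 540 and 400 CPM and Lcn2 at 399, 146, 358 and 570. Elane, Mpo, Camp and Ngp were thus at 0 or low, Ltf, Hp and Lcn2 were not, and Mmp9 was well above the other cells in all 4 libraries. Ltf, however, lay below the other cells in Trp53-deleted, Trp53-intact ADT and Trp53-intact, and Lcn2 lay below them in Trp53-deleted.

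**Figure D2:**
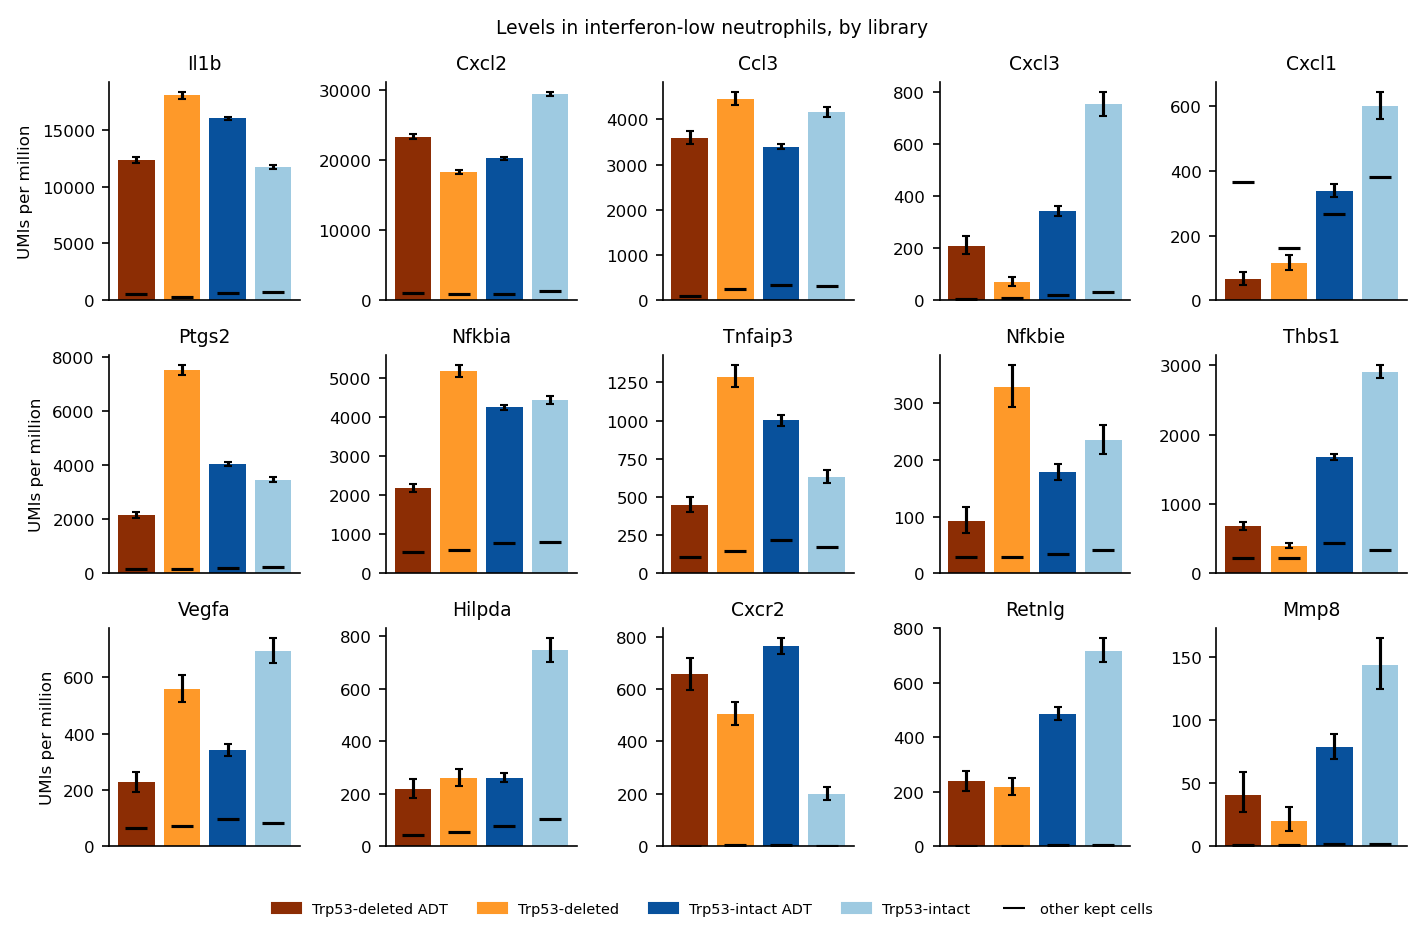
CPM of 15 genes in the members of each library, with exact 95% Poisson intervals, on linear axes. Black dashes show all other kept cells of the same library. Ptgs2, Nfkbia, Nfkbie and Tnfaip3 were lowest in Trp53-deleted ADT members, Thbs1, Cxcl3, Retnlg and Mmp8 highest in Trp53-intact members, and Cxcr2 lowest in Trp53-intact members.

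Inflammatory products were abundant in these cells in every library. Il1b, which encodes interleukin 1 beta, was at 12318 CPM in Trp53-deleted ADT, 18004 in Trp53-deleted, 15996 in Trp53-intact ADT and 11710 in Trp53-intact members. Cxcl2 was at 23343, 18298, 20270 and 29422 CPM in the same libraries, and Ccl3, a CC chemokine that draws monocytes and other leukocytes, at 3591, 4458, 3395 and 4163. These genes were at least 10 times higher than in the other kept cells of each library, and none of them reached 2-fold between groups. Per cell the medians of Il1b were 126, 180, 190 and 111 UMIs per 10000, and those of Cxcl2 230, 135, 176 and 225. The totals of these genes were thus not set by a few cells. Ccl3 was less even, with medians of 8.85, 10.8, 3.90 and 12.6 and upper quartiles of 49.3, 56.0, 39.7 and 54.1. Its lower quartile was 0 in each library.

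For ADT in Trp53-deleted mice, Trp53-deleted ADT members were set over Trp53-deleted members. Genes of the NF-kB response were lower in the Trp53-deleted ADT library, and so were the prostaglandin synthase gene Ptgs2 and 3 survival genes, while Wfdc17, Ifitm1 and Cxcl3 were higher. Of 6911 genes with at least 20 UMIs over both libraries, 201 (2.91%) were at least 2-fold higher and 254 (3.68%) at least 2-fold lower, 6.58% in all, by size alone. For each ratio 10 CPM was added to both values, which understates the change of low genes. The median log2 ratio of all these genes was -0.09. When that median was set to 0, the higher genes made up 55.9% of those past 2-fold in place of 44.2%. In 75 of these 455 genes a single cell held over 50% of the UMIs, and 161 genes passed 2-fold when genes with over 10% of their UMIs in 1 cell were left out. Interferon-high neutrophils of these libraries held 3051 against 5575 CPM of Ptgs2 and 85.3 against 232 of Nfkbie. They held 1504 against 583 CPM of Wfdc17, 1216 against 684 of Ifitm1 and 178 against 69.5 of Cxcl3. These genes thus differed the same way in both kinds of neutrophil.

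Of 19 NF-kB response genes, 8 were at least 2-fold lower and none higher, where 3.68% of all genes were lower. Their median log2 ratio was -0.84, and all but Bcl3 had a ratio below 0. The list was drawn up with earlier results of these data known. Nfkbia was at 2179 CPM (2072 to 2291) in Trp53-deleted ADT members and 5174 CPM (5031 to 5321) in Trp53-deleted members, a log2 ratio of -1.24. Tnfaip3 was at 450 CPM (402 to 502) in Trp53-deleted ADT members against 1287 CPM (1216 to 1361) in Trp53-deleted members, or -1.50. Nfkbie was at 91.9 CPM (70.9 to 117) against 329 CPM (294 to 367), or -1.73. These intervals were far apart, and for each gene the Trp53-deleted ADT value was the lowest of the 4 libraries.

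The nuclear inhibitors and modulators followed. Nfkbid, which encodes a nuclear inhibitor protein, was at 397 CPM in Trp53-deleted ADT members against 1043 in Trp53-deleted members, and Nfkbiz, which encodes another nuclear member of that family, at 669 against 1610. Birc3, an apoptosis inhibitor that takes part in tumour necrosis factor signalling, was at 202 CPM in Trp53-deleted ADT members against 451 in Trp53-deleted members. Nfkb1, the p50 subunit, had 287 CPM against 584, at the edge of the limit, and Ikbke, a kinase of the pathway, had 39.6 against 99.5. The subunit genes Rel, Rela, Relb and Nfkb2 had log2 ratios of -0.38, -0.73, -0.04 and -0.13 and did not reach 2-fold. Over the 15 alternative settings tried, the list's median lay between -1.03 and -0.60, with 5 to 9 genes at least 2-fold lower.

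**Figure D3:**
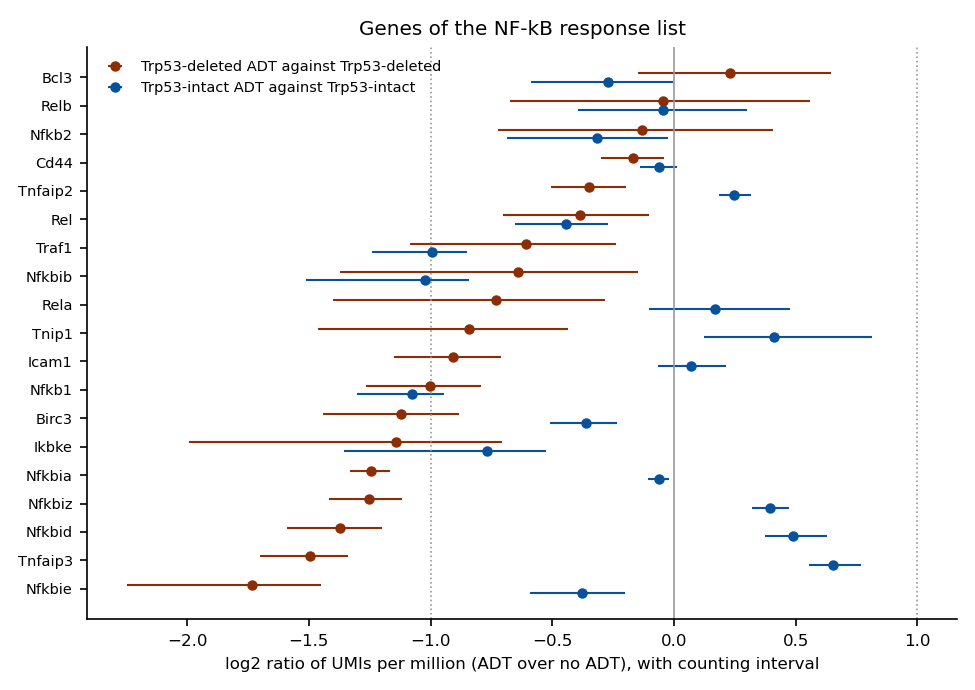
Log2 ratio of each of 19 NF-kB response genes with ADT over without ADT, in Trp53-deleted and Trp53-intact members, with counting intervals (95%). The intervals are those of ratios without the 10 CPM added. In Trp53-deleted mice 18 of 19 genes lay below 0 and 8 lay at or below -1, and in Trp53-intact mice the values spread around a median of -0.06.

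Ptgs2 (chromosome 1, 150100031 to 150108227, plus strand) showed the same direction in a gene outside that list. It was at 2150 CPM (2043 to 2260) in Trp53-deleted ADT members and 7509 CPM (7336 to 7685) in Trp53-deleted members, a log2 ratio of -1.80 (-1.89 to -1.72). In cells thinned to 1000 UMIs it was detected in 64.7% of Trp53-deleted ADT members against 87.8% of Trp53-deleted members, and in 3.68% and 1.42% of B cells, which should lack it. Unthinned, at median depths of 2608 and 2704 UMIs, these shares of members were 76.7% and 90.4%, and the B cells had median depths of 3757 and 4061 UMIs. Thinning left out 5 and 36 shallower members. Other genes past 2-fold lower were Dot1l, a histone H3 lysine methyltransferase (123 against 449 CPM), Olr1, a scavenger receptor for oxidised lipoprotein (109 against 328 CPM), and Arhgap31 (19.8 against 107 CPM). Itpr2, a calcium channel of the endoplasmic reticulum, was at 89.1 against 558 CPM, though 1 cell held 37.3% of its Trp53-deleted UMIs. Gdpd3, a lysophospholipase D, was at 8.49 CPM in Trp53-deleted ADT members and 52.4 CPM in Trp53-deleted members.

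Of 20 survival and death genes, 3 were at least 2-fold lower and none higher, with a median log2 ratio of -0.28: Bcl2a1d, a BCL2-family survival gene (451 against 973 CPM), Cflar, which restrains caspase 8 (126 against 266), and Pim1, a survival kinase (2041 against 4336). With the median of all genes set to 0, Cflar and Pim1 were no longer past 2-fold. Mcl1, on which neutrophil survival depends in mice, had a log2 ratio of -0.23. Bcl2a1d has near-identical copies, so its reads may be split among them. Of 19 granulocyte transcription factors, 2 were at least 2-fold lower and none higher, with a median of -0.39. In this comparison 3.68% of all genes were at least 2-fold lower and 2.91% higher. Nr4a1, an immediate early nuclear receptor, was at 822 CPM in Trp53-deleted ADT members against 2303 in Trp53-deleted members, and Bhlhe40 at 322 against 672. Bhlhe40 also fell within 2-fold with the median of all genes set to 0. Zfp36, which encodes an mRNA-destabilising protein, was at 1495 against 3595. Cxcr4 was at 366 against 883 CPM, and Ncf1, a subunit of the NADPH oxidase, at 412 against 1003. Vegfa, the vascular growth factor, was at 226 CPM in Trp53-deleted ADT members and 558 CPM in Trp53-deleted members.

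Fewer neutrophil genes were higher with ADT in Trp53-deleted mice. Wfdc17, which encodes a small secreted protease inhibitor-like protein, was at 946 CPM (876 to 1021) in Trp53-deleted ADT members against 323 CPM (288 to 361) in Trp53-deleted members. Ifitm1, an interferon-inducible membrane protein gene, was at 1368 against 512 CPM, and Cxcl3, a CXCR2 ligand, at 211 against 71.2. Of 11 specific granule genes, 3 were at least 2-fold higher: Lcn2, the iron-scavenging lipocalin (399 against 146 CPM), Hp, haptoglobin (553 against 225), and Chil3, a chitinase-like protein (50.9 against 15.7). The share of all genes at least 2-fold higher was 2.91%. Lcn2 was also abundant in the other cells of the Trp53-deleted library, at 350 CPM. All 6 measured MHC class II genes were more than 2-fold higher, with a median log2 ratio of 1.47, but at levels below the other cells. H2-Ab1 was at 563 CPM in Trp53-deleted ADT members against 170 in Trp53-deleted members, with 58.5% of the Trp53-deleted ADT UMIs in 1 cell and 1482 CPM in the other cells there. Without the highest doublet scores the class II median was 0.62 and no gene of the list reached 2-fold.

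The remaining genes at the extremes of this comparison had most of their UMIs in 1 cell each, which need not be the same cell. On the higher side the top Trp53-deleted ADT cell held 97.7% of Reg1 UMIs, 92.6% of Ctsk, 90.3% of Acp5, 100% of Tff3, 90.2% of Lgals4, 79.5% of Bpgm and 66.7% of Klrd1. On the lower side the top Trp53-deleted cell held 86.8% of Sprr2a3, 66.2% of Prss23 and 89.1% of Fbn1. Values of these 10 genes describe individual barcodes.

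For ADT in Trp53-intact mice, Trp53-intact ADT members were set over Trp53-intact members. Here Egr1, Egr2, Gdpd3, Il17ra and Tgfbr1 were higher, and Hilpda, Vegfa, Plin2 and Cxcl3 were lower. Of 9559 genes compared, 150 (1.57%) were at least 2-fold higher and 146 (1.53%) at least 2-fold lower, 3.1% in all, with a median log2 ratio of 0.16. Set to a median of 0, the higher genes made up 30.1% of those past 2-fold in place of 50.7%. Of the 296 genes past 2-fold, 142 had no cell with over 10% of the UMIs. This was the comparison with the most UMIs and the smallest share of genes past 2-fold.

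Cxcr2 was part of the selection rule, so its values describe the cells. Its level was 764 CPM (735 to 794) in Trp53-intact ADT members against 200 CPM (178 to 225) in Trp53-intact members, and 656 and 505 CPM in Trp53-deleted ADT and Trp53-deleted members. The Trp53-intact library was thus the one with low Cxcr2. Csf3r, the other receptor of the rule, was at 1431 CPM in Trp53-intact ADT against 993 in Trp53-intact members. Members with a single UMI of the receptors made up 12.1%, 9.24%, 7.77% and 16.8% of Trp53-deleted ADT, Trp53-deleted, Trp53-intact ADT and Trp53-intact members. Among 16 growth factor and cytokine receptors outside the rule, 2 were at least 2-fold higher with ADT and none lower, with a median log2 ratio of 0.50. The share of all genes at least 2-fold higher was 1.57%. Il17ra, the interleukin 17 receptor subunit, was at 203 CPM in Trp53-intact ADT members against 70.3 in Trp53-intact members, and Tgfbr1, a receptor for transforming growth factor beta, at 155 against 62.0.

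Of 25 genes of dissociation and heat stress, 3 were at least 2-fold higher with ADT (Egr1, Egr2 and Ier2) and 2 lower (Hspa1a and Hspa1b), with a median log2 ratio of 0.28 where all genes had 0.16. The 3 higher ones are immediate early genes, which cells switch on soon after a stimulus or tissue dissociation. Among all genes, 1.57% were at least 2-fold higher and 1.53% lower. Egr1 was at 2895 CPM (2838 to 2953) in Trp53-intact ADT members against 874 CPM (827 to 924) in Trp53-intact members, Egr2 at 118 against 38.3 and Ier2 at 894 against 364. The other kept cells differed the same way, with Egr1 at 1965 against 820 CPM. Nr4a1 was at 1963 against 966 CPM, and Klf4, a myeloid transcription factor, at 147 against 59.9. Hspa1a and Hspa1b, which encode heat shock proteins, were at 96.0 against 325 CPM and 73.7 against 255, and in the other cells at 81.6 against 1054 and 80.1 against 1074. In Trp53-intact ADT members 1 cell held 68.2% of the Hspa1a UMIs and 77.3% of those of Hspa1b. How far dissociation or handling of the 2 preparations set these values was not tested.

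Of 19 genes known from tumour neutrophils, 3 were at least 2-fold lower and 2 higher, with a median log2 ratio of -0.09. Among all genes, 1.53% were at least 2-fold lower and 1.57% higher. Hilpda, a hypoxia-induced inhibitor of lipolysis, was at 261 CPM in Trp53-intact ADT members against 747 in Trp53-intact members, Plin2, a lipid droplet coat protein, at 169 against 407, and Vegfa at 341 against 694. The 2 higher ones were Fnip2 (143 against 36.2 CPM) and Gpnmb (71.1 against 4.87 CPM). Gpnmb was at 115 CPM in the other cells of the Trp53-intact ADT library, above the members. Of 26 genes of glycolysis and hypoxia, only Ero1l, an oxidase of the endoplasmic reticulum, reached 2-fold, at 135 against 298 CPM, and the list's median was -0.08. Cxcl3 was at 342 CPM in Trp53-intact ADT members against 752 in Trp53-intact members, Wfdc17 at 516 against 1149, and Ccl9, a CC chemokine that stood higher in the other cells, at 23.8 against 73.8. Sgms2, a sphingomyelin synthase, was at 112 CPM (101 to 124) against 430 CPM (397 to 465), with a log2 ratio of -1.85.

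Gdpd3 had the highest ratio of the genes the naming rule took up, at 173 CPM (159 to 187) in Trp53-intact ADT members against 13.2 CPM (7.96 to 20.7) in Trp53-intact members, a log2 ratio of 2.98. It was detected in 27.4% of Trp53-intact ADT members against 4.80% of Trp53-intact members. The other cells of those libraries held 51.3 and 10.4 CPM. Rgs10, a regulator of G protein signalling, was at 211 against 63.3 CPM, and Il23a, a subunit of interleukin 23, at 216 against 99.5. Atp6v0d2, a proton pump subunit, was at 27.6 against 2.78 CPM, with few UMIs. Of the NF-kB response genes, 2 of 19 were at least 2-fold lower (Nfkb1, at 161 against 351 CPM, and Nfkbib, at 45.2 against 102) and none higher, with a median log2 ratio of -0.06. Among all genes, 1.53% were at least 2-fold lower and 1.57% higher. Nfkbia was at 4242 CPM in Trp53-intact ADT members and 4430 in Trp53-intact members, and Tnfaip3 at 1001 and 633. Whether the NF-kB ratios differed between the genotypes was not tested, since each is a ratio of single libraries.

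Class II genes had a median log2 ratio of -0.49 with none past 2-fold, and of 0.81 without the highest doublet scores. Single cells carried most other extreme genes here. The top Trp53-intact ADT cell for each gene held 98.01% of Igha UMIs, 69.5% of Jchain, 99.3% of Gzmc, 91.5% of Upk3a and 35.4% of Prok2. On the lower side the top Trp53-intact cell for each gene held 75.9% of Cryab, 87.0% of Mt3, 78.4% of Pmp22, 95.6% of S100b, 96.6% of Svs6, 94.5% of Arl14 and 34.7% of Cd209a. Igha and Jchain are antibody genes of plasma cells.

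Genotype without ADT was compared as Trp53-deleted members over Trp53-intact members. Trp53-deleted members held less Thbs1, Cxcl3, Cxcl1, Mmp8 and Retnlg and more Egr3, Ptgs1 and Ptgs2. Of 7532 genes compared, 464 (6.16%) were at least 2-fold higher and 156 (2.07%) at least 2-fold lower, 8.23% in all, so 74.8% of the genes past 2-fold were higher. The median log2 ratio was 0.27, and with that median set to 0 the higher share was 32.9%. The direction of the majority thus depended on the scaling, and single genes are best read against the shift of 0.27. Of the 620 genes, 360 had no cell with over 10% of the UMIs.

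Several chemokine genes stood lower in Trp53-deleted members. Among the 19 cytokines and chemokines measured, 5 were at least 2-fold lower and none higher, where 2.07% of all genes were lower. Cxcl3 (chromosome 5, 90786103 to 90789600, plus strand) was at 71.2 CPM (55.3 to 90.3) in Trp53-deleted members against 752 CPM (708 to 799) in Trp53-intact members, a log2 ratio of -3.23. It was detected in 5.41% of Trp53-deleted members against 26.9% of Trp53-intact members, and after thinning in 3.60% against 19.4%, with 0.236% and 0% of B cells. Cxcl1, a ligand of CXCR2, was at 115 against 600 CPM, but the other cells held 160 and 380 CPM, and after thinning it was detected in 3.96% against 14.0% of members and in 0.708% against 2.72% of B cells. Ccl6 was at 307 CPM in Trp53-deleted members against 749 in Trp53-intact members, while Ccl2 and Ccl9 stood below the other cells in both libraries. Cxcl2 had a log2 ratio of -0.68 and Il1b one of 0.62, so these stayed within 2-fold.

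Thbs1 (chromosome 2, 118111876 to 118127133, plus strand), which encodes the matrix glycoprotein thrombospondin 1, differed in both detection and level. Its level was 399 CPM (360 to 441) in Trp53-deleted members against 2910 CPM (2823 to 3000) in Trp53-intact members, a log2 ratio of -2.84. After thinning it was detected in 10.4% of Trp53-deleted members against 57.4% of Trp53-intact members, and in 0.943% and 2.72% of B cells. With ADT it stood at 683 CPM in Trp53-deleted ADT members and 1677 CPM in Trp53-intact ADT members. Both Trp53-deleted libraries were thus below both Trp53-intact libraries. The same held for the other kept cells, at 215, 214, 442 and 335 CPM in Trp53-deleted ADT, Trp53-deleted, Trp53-intact ADT and Trp53-intact.

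Of 11 specific granule genes, 2 were at least 2-fold lower (Mmp8 and Lcn2) and 1 higher (Cd177, at 27.2 against 6.26 CPM), and of 8 maturation and circulation genes 1 was lower (Retnlg) and none higher, where 2.07% of all genes were lower. S100a8 and S100a9, which belong to the rule, stood at 12339 against 25129 CPM and 13356 against 30318 CPM. Mmp8, the neutrophil collagenase, was at 19.9 CPM in Trp53-deleted members against 144 in Trp53-intact members, and Retnlg, a resistin-like protein of mature neutrophils, at 218 against 718. Lcn2 was at 146 against 570 CPM, and Wfdc17 at 323 against 1149. In the same comparison Hilpda was at 261 against 747 CPM and Plin2 at 155 against 407. Mmp9 was higher, at 1492 CPM in Trp53-deleted members against 710 in Trp53-intact members, though not past 2-fold with the median of all genes set to 0. Lcn2 was nearly as high in the other Trp53-intact cells, at 443.5 CPM, while Retnlg and Mmp8 were at 3.65 and 1.47 CPM there. Class II genes had 3 of 7 at least 2-fold lower with a median of -0.73, which turned to 0.51 without the highest doublet scores.

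On the higher side, Egr3 was at 347 CPM (310 to 386) in Trp53-deleted members against 36.9 CPM (27.6 to 48.3) in Trp53-intact members, and the other cells held 23.9 and 24.8 CPM. Of 10 lipid mediator genes, 3 were at least 2-fold higher: Ptgs1, the constitutive prostaglandin synthase (127 against 29.9 CPM), Ptgs2 (7509 against 3455 CPM) and Hpgds, a prostaglandin D synthase (30.4 against 6.26 CPM, with 69.0% of its Trp53-deleted UMIs in 1 cell). Of 16 growth factor and cytokine receptors, 3 were higher and none lower, with a median log2 ratio of 0.54: Il6ra (190 against 68.2 CPM), Il17ra (177 against 70.3) and Tgfbr1 (199 against 62.0). With the median of all genes set to 0, Ptgs2 and Il17ra were no longer past 2-fold, while Ptgs1, Hpgds, Il6ra and Tgfbr1 were. Of 19 granulocyte transcription factors, 5 were higher and none lower, with a median of 0.63. These were Cebpe, a factor of late granule formation (22 against 4.18 CPM), Klf4 (150 against 59.9, below the other cells), Irf1 (172 against 79.4), Nr4a1 (2303 against 966) and Atf4 (407 against 170). With the median of all genes set to 0, none of these 5 stayed at least 2-fold higher and the list's median was 0.36. Without that scaling, 6.16% of all genes were at least 2-fold higher. Gpr84, a receptor for medium-chain fatty acids, was at 184 CPM in Trp53-deleted members against 50.1 in Trp53-intact members, and Hexim1, an inhibitor of transcription elongation, at 203 against 55.0.

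NF-kB response genes had a median log2 ratio of 0.21 here, with 2 of 19 at least 2-fold higher, where 6.16% of all genes were. These were Nfkbid (1043 against 452 CPM) and Tnfaip3 (1287 against 633 CPM). With the median of all genes set to 0 neither was past 2-fold and the list's median was -0.06, so its direction depended on the scaling. Itpr2 was at 558 CPM in Trp53-deleted members against 89.8 in Trp53-intact members. The top Trp53-deleted cell for each gene held 57.2% of Prok2 UMIs, 75.9% of Cxcr1, 66.2% of Prss23, 89.1% of Fbn1 and 86.8% of Sprr2a3, and the lower extremes Cd209a, S100b, Cryab and Mt3 came from the Trp53-intact barcodes given above.

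Genotype under ADT was compared as Trp53-deleted ADT members over Trp53-intact ADT members. Both libraries came from mice of 5.5 months, so here age did not go with the contrast. Of 9289 genes compared, 220 (2.37%) were at least 2-fold higher and 198 (2.13%) at least 2-fold lower, 4.5% in all, with a median log2 ratio of 0.02, and 154 of the 418 had no cell with over 10% of the UMIs. Of 19 NF-kB response genes, 3 were at least 2-fold lower and none higher, with a median log2 ratio of -0.40: Nfkbiz (669 against 1626 CPM), Tnfaip2 (767 against 2140) and Tnfaip3 (450 against 1001). Cxcr4 was at 366 CPM in Trp53-deleted ADT members against 891 in Trp53-intact ADT members, Nr4a1 at 822 against 1963, and Zfp36 at 1495 against 3033.

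Other genes lower in Trp53-deleted ADT members were Cxcl1 (66.5 against 338 CPM, where the other cells held 365 and 268), Inhba, an activin subunit (24.0 against 102 CPM), Hspa4l, a heat shock protein (76.4 against 248), Itpr2 (89.1 against 275) and Gdpd3 (8.49 against 173). Cd274, which encodes the checkpoint ligand PD-L1, was at 77.8 CPM in Trp53-deleted ADT members and 169 CPM in Trp53-intact ADT members. After thinning it was detected in 8.26% against 12.3% of members and in 2.45% against 4.92% of B cells. Fpr1, a receptor for bacterial formyl peptides, was at 56.6 against 128 CPM, and Pira2, a leukocyte receptor, at 35.4 against 88.4.

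Higher in Trp53-deleted ADT members were Lsmem1, a membrane protein gene (83.4 against 12.0 CPM), Clec12a, an inhibitory lectin receptor (80.6 against 16.2 CPM, with 33.3% in 1 cell), and Igtp, an interferon-inducible GTPase (67.9 against 13.5 CPM). Spp1, osteopontin, was at 897 CPM in Trp53-deleted ADT members against 417 in Trp53-intact ADT members, with 1006 and 235 CPM in the other cells. Class II genes had a median log2 ratio of 1.18 with 5 of 7 at least 2-fold higher, and 0.07 with none past 2-fold once the highest doublet scores were left out. Cell cycle genes had a median of 0.74 with 4 of 10 at least 2-fold higher, where 2.37% of all genes were. In Trp53-deleted ADT over Trp53-deleted members the list had a median of 0.71. There 3 of 8 measured cell cycle genes were at least 2-fold higher, where 2.91% of all genes were. Top2a, a marker of dividing cells, was at 33.9 CPM in Trp53-deleted ADT members against 11.7 in Trp53-intact ADT members. The other cells held 138 and 33.5 CPM of Top2a. The top Trp53-deleted ADT cell for each gene held 97.0% of Apoc1 and, as above, most of Ctsk, Reg1, Tff3, Acp5, Lgals4 and Bpgm. On the lower side, the top Trp53-intact ADT cell held 64.1% of Tbc1d4 and 53.04% of Stfa1, besides Igha, Jchain and Upk3a.

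**Figure D4:**
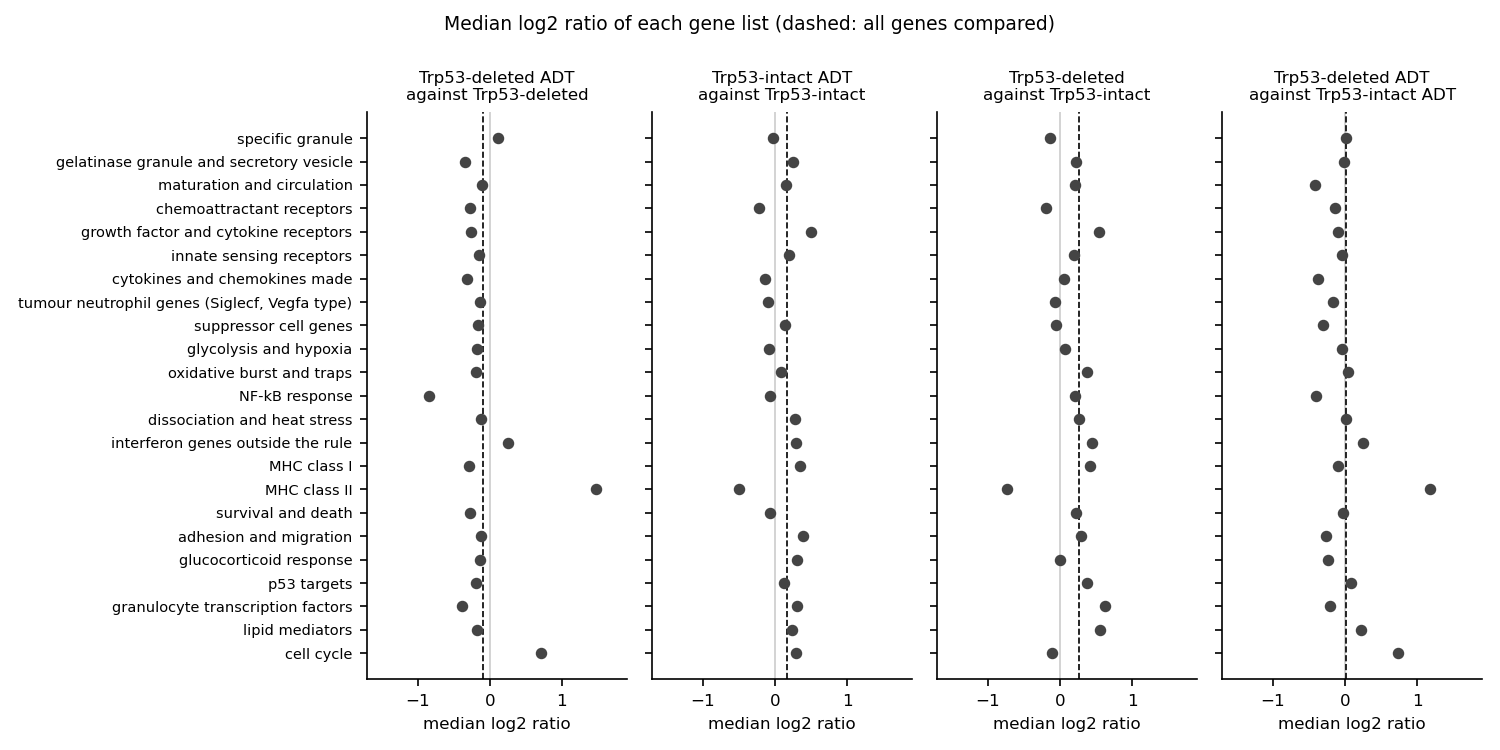
Median log2 ratio of the measured members of each of 23 gene lists in 4 comparisons between libraries; dashed lines mark the median of all genes compared. NF-kB response genes had the lowest median with ADT in Trp53-deleted mice (-0.84), and MHC class II genes the highest (1.47).

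Set against interferon-high neutrophils of the same libraries, the members differed by the genes of the interferon program, as their selection fixes. The 4 interferon genes of the rule summed to 80.6, 102, 91.9 and 69.6 CPM in Trp53-deleted ADT, Trp53-deleted, Trp53-intact ADT and Trp53-intact members. In interferon-high neutrophils they summed to 9401, 11538, 8527 and 9374 CPM, and in B cells to 70.3, 45.1, 42.8 and 24.3. The members thus stood within 3 times the B cells, while the interferon-high cells stood over 80 times above the members. Of 4814 genes compared, 103 (2.14%) were at least 2-fold lower in the members in each of the 4 libraries and 2 (0.0415%) at least 2-fold higher. The 2 were Ltc4s, leukotriene C4 synthase, and Eprs, a transfer RNA synthetase.

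The genes lower in the members reached past the 4 genes of the rule. Of 36 other interferon genes, 33 were at least 2-fold lower in each library, such as Cmpk2, a mitochondrial nucleotide kinase induced by interferon (7.07, 8.38, 7.93 and 3.48 CPM in Trp53-deleted ADT, Trp53-deleted, Trp53-intact ADT and Trp53-intact members, against 423, 576, 376 and 369 CPM in interferon-high cells). Cxcl10, a T cell attracting chemokine, was at 182, 253, 118 and 108 CPM against 2155, 2703, 3102 and 2875. Cd274 was at 77.8, 154, 169 and 210 CPM against 519, 1152, 635 and 997. All 13 MHC class I pathway genes were lower in all 4 libraries, where 11.9% of all genes were. B2m, the class I light chain, was at 1424, 1952, 1766 and 1823 CPM in members against 3211, 4289, 4108 and 4133 in interferon-high cells.

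Glycolysis and hypoxia genes were lower in the members too, with 19 of 26 below the interferon-high cells in all 4 libraries, by less than 2-fold in most. Of all genes, 11.9% were lower in all 4 libraries. Hk2, a hexokinase, was at 102, 128, 178 and 220 CPM in Trp53-deleted ADT, Trp53-deleted, Trp53-intact ADT and Trp53-intact members, against 213, 272, 294 and 332 CPM in interferon-high cells. Pkm, pyruvate kinase, was at 805, 856, 637 and 633 CPM against 1070, 1033, 908 and 786. Of 6 lipid mediator genes, 5 were higher in the members in all 4 libraries, where 40.4% of all genes were. Alox5ap, which presents arachidonic acid to 5-lipoxygenase, was at 774, 745, 661 and 776 CPM against 583, 433, 462 and 448, and Ltc4s at 82.0, 62.8, 66.4 and 31.3 CPM against 24.9, 20.02, 26.8 and 7.79. These values come from the contrast that chose the cells and are given as a description.

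The members themselves ranged widely in S100a8 and S100a9, the alarmin genes that mature neutrophils carry in large amounts. The members of each library were ranked by the sum of these 2 genes and divided into 3 sets of like size, and the S100-high set was set against the S100-low set, with 74, 104, 261 and 125 cells each in Trp53-deleted ADT, Trp53-deleted, Trp53-intact ADT and Trp53-intact. The S100-high set had median sums of 710, 489, 914 and 1042 UMIs per 10000 and the S100-low set 83.2, 28.3, 89.2 and 100.3. Median depths were similar, at 2759, 2724.5, 3635 and 3407 UMIs in the S100-high set and 2477.5, 2398.5, 3485 and 3231 in the S100-low set. Since cells were split by genes measured in the same cells, the values below are a description.

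Of 8 maturation and circulation genes, 5 were higher in the S100-high set in all 4 libraries, where 18.3% of 3019 genes were. Retnlg, a member of that list, was at 696, 467, 1366 and 1939 CPM in the S100-high set of Trp53-deleted ADT, Trp53-deleted, Trp53-intact ADT and Trp53-intact members, against 13.1, 87.3, 77.5 and 103 CPM in the S100-low set. Stfa2l1, a stefin-like protease inhibitor gene, was at 658, 477, 435 and 607 CPM against 42.6, 75.3, 73.1 and 79.3. Fpr1 was at 114, 164, 266 and 162 CPM against 19.6, 24.1, 43.9 and 68.3. Of 7 chemoattractant receptors 6 were higher in the S100-high set in all 4 libraries, of 13 innate sensing receptors 9, and of 6 gelatinase granule and secretory vesicle genes 5. At least 2-fold in each library, 24 genes (0.795%) were higher and 84 (2.78%) lower. G0s2 and Slc16a3, a lactate exporter, were also higher in the S100-high set of each library, at 6225, 7636, 5805 and 10397 against 1683, 2757, 2162 and 5741 CPM for G0s2.

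**Figure D5:**
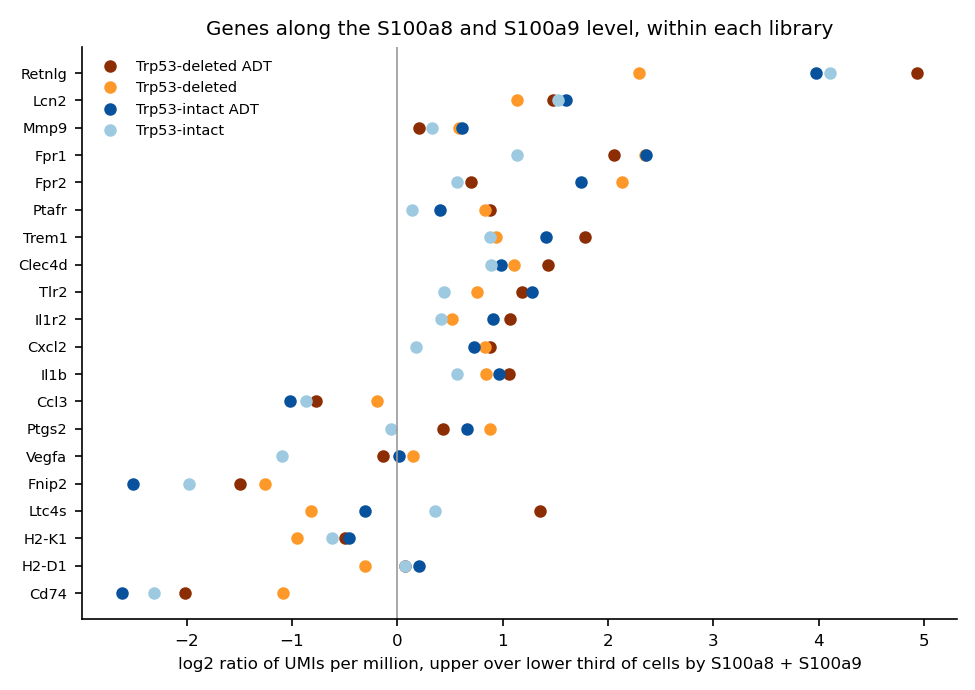
Log2 ratio of the S100-high over the S100-low members, the uppermost and lowermost of 3 sets by S100a8 and S100a9, 1 point per library. Retnlg had ratios of 4.93, 2.29, 3.97 and 4.10 in Trp53-deleted ADT, Trp53-deleted, Trp53-intact ADT and Trp53-intact members, and the class II gene Cd74 lay below 0 in all 4.

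Ccl3 and lipid droplet genes did not all follow. Ccl3 was lower in the S100-high set, at 2056, 3962, 1936 and 2822 CPM against 3506, 4527, 3928 and 5154. Il1b and Cxcl2 were higher there in each library. Once members with other cell types' markers were left out, Cxcl2 no longer was, with a lowest log2 ratio of -0.046. Hilpda was lower in the S100-high set, at 142, 257, 89.8 and 613 CPM against 350, 322, 413 and 815, and Plin2 higher. Of 12 class I genes 9 were lower in the S100-high set in all 4 libraries, as were all 4 class II genes measured, where 34.8% of all genes were. Epithelial genes such as Epcam (23.7, 63.4, 36.7 and 60.7 CPM in the S100-high set against 367, 226, 165 and 256 in the S100-low set) and the fibroblast gene Dcn were lower as well. The highest doublet scores numbered 2, 1, 7 and 4 in the S100-high set and 7, 9, 33 and 14 in the S100-low set, and median mitochondrial shares were 2.82%, 1.07%, 1.58% and 2.76% against 4.11%, 2.13%, 2.36% and 3.54%. Their part in these differences was not tested. Without the members that carried other cell types' markers, 4 of 8 maturation and circulation genes, 5 of 7 chemoattractant receptors, 7 of 12 innate sensing receptors and 5 of 6 gelatinase and vesicle genes were higher in all 4 libraries, and 8 of 11 class I genes lower, where 15.3% of 2781 genes were higher and 32.4% lower.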

How the data were processed

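The deposited files hold 1 matrix of UMI counts for 30905 genes and 36326 barcodes, with a table that ties each barcode suffix to 1 of 4 libraries. The authors made these counts with Cell Ranger against mm10, version 2.1.1 per the submitters' processing notes and 3.1.0 per the file headers; other steps are not given in the sources used here. Part of the genotype shared by all groups, and a few genes, are not reported here.

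A barcode was kept as a cell if it held 500 UMIs or more from no fewer than 200 genes and if no more than 20% of them were mitochondrial, which left 31165. Counts of members were summed per library, divided by the total and multiplied by 1000000. Ratios used 10 CPM added to each value and genes with at least 20 UMIs over both libraries. With 1 library per group no count test such as a fit across genes was possible; genes past 2-fold are called by size. Intervals (95%) are exact Poisson for levels, Clopper-Pearson for shares and conditional binomial for ratios. The intervals for ratios were taken without the 10 CPM added, so the stated ratio of a low gene can lie outside its interval. They cover counting error only. The comparison step was tested on simulated counts. The members and the 24 gene lists and 14 marker lists were chosen with earlier results of these data known, and 3 list genes were not in the matrix. Named genes were the 10 highest and 10 lowest ratios per comparison with at least 50 UMIs, a level in the higher library at or above the other kept cells and at least 2-fold above B cells, leaving out mitochondrial, ribosomal protein, haemoglobin, predicted and selection genes, together with list members past 2-fold and up to 6 leading members of each list. Genes outside that rule, such as those of the S100 sets, were taken for description after their values were seen. B cells were kept cells with at least 20 UMIs per 10000 of Cd79a, Cd79b and Ms4a1 and no UMI of Csf3r or Cxcr2. They also needed at least 2 UMIs from among these B cell genes. Doublets were kept: Scrublet's own threshold marked 0, 1, 4 and 0 cells in Trp53-deleted ADT, Trp53-deleted, Trp53-intact ADT and Trp53-intact and so did not work, and an alternative left out the highest scores (0.8% per 1000 barcodes). Gene positions are from GENCODE M21 on GRCm38. Python 3.11.15, numpy 2.4.6, pandas 2.3.3, scipy 1.17.1, scanpy 1.11.5 and matplotlib 3.10.9 were used.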

Additional observations from a re-analysis of the deposited data

Results flagged for a closer look

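Several values differed in opposite directions with ADT in the 2 genotypes, each as a ratio or difference of single libraries, and the difference between the genotypes was not tested. The share of members among kept cells differed with ADT by -3.20 percentage points in Trp53-deleted mice and 5.49 points in Trp53-intact mice. Wfdc17 had a log2 ratio of 1.52 with ADT in Trp53-deleted mice and of -1.14 in Trp53-intact mice, and Cxcl3 of 1.44 and -1.11. Ccl9 had ratios of 1.03 in Trp53-deleted mice and -1.31 in Trp53-intact mice, at levels below the other kept cells in each library. Itpr2 had ratios of -2.52 in Trp53-deleted mice and 1.51 in Trp53-intact mice, Gdpd3 of -1.75 and 2.98, and Nr4a1 of -1.48 and 1.02. Cd209a, a lectin receptor gene of dendritic cells, had ratios of 2.36 in Trp53-deleted mice and -2.81 in Trp53-intact mice, with 34.7% of its Trp53-intact UMIs in 1 cell.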

How the results depend on the processing

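No paired analysis was possible because each group is 1 library, and for the same reason no replicate could be left out. The differences in share that moved were, in the order Trp53-deleted ADT minus Trp53-deleted, Trp53-intact ADT minus Trp53-intact, Trp53-deleted minus Trp53-intact and Trp53-deleted ADT minus Trp53-intact ADT, -1.96, 4.599, -0.030 and -6.59 points with a neutrophil sum of at least 100, and -7.01, 8.89, 3.01 and -12.9 with no interferon limit. At least 1000 UMIs gave 6.48, 0.013 and -9.27 for the last 3. At most 10% mitochondrial UMIs gave -3.99 for the first and -8.73 for the last, and Ptprc cells as denominator gave -5.28, 10.4 and, for the last, -15.1.

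Genes past 2-fold, in the same order (455, 296, 620 and 418), numbered 918, 1284, 1463 and 1348 with 1 CPM added, 110, 62, 98 and 79 with 50 CPM added, 145, 193, 270 and 219 with at least 100 UMIs, 126, 104, 207 and 121 among genes above the other cells and B cells, and 161, 142, 360 and 154 without genes that 1 cell carried (an alternative chosen after seeing the data). No interferon limit gave 409 for the third comparison.

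Signs turned in few named genes, most of them carried by single cells. For Trp53-deleted ADT over Trp53-deleted, Prss23 gave 0.74 without the highest doublet scores, 0.10 without cells holding other cell types' markers (also chosen after seeing the data) and 0.11 with cells weighted equally, and Fbn1 gave 1.62, 1.63 and 0.81 there, 1.26 with a sum of at least 100 and 0.86 with at least 2 receptor UMIs. Tff3 gave -0.84 with that sum and -1.10 without other markers, Pecam1 0.039 with that sum, and Ccl2 -0.47 and Gbp2 -0.68 with no interferon limit. For Trp53-intact ADT over Trp53-intact, Prok2 gave -0.26 with that sum, and Igha -0.32 and Jchain -0.21 with cells weighted equally. For Trp53-deleted over Trp53-intact, leaving out the highest doublet scores gave -0.30 for Fbn1, -0.32 for Sprr2a3, 0.12 for H2-Ab1, 0.63 for H2-Eb1 and 0.51 for the class II median. That sum gave -0.53 for Prok2, -0.48 for Fbn1, -0.012 for Cxcr1 and -0.23 for Sprr2a3. Sprr2a3 gave -0.48 with at most 10% mitochondrial UMIs, Ccl2 0.025 with no interferon limit, and Fbn1 -0.45 without other markers. For Trp53-deleted ADT over Trp53-intact ADT, H2-Ab1 gave -0.28 and H2-Eb1 -0.049 without the highest doublet scores, Upk3a 0.032 with at most 10% mitochondrial UMIs and 0.055 with that sum, and Apoc1 -0.16 with that sum. The cause was not tested in any of these. Of 220 named or list genes past 2-fold, 126 stayed past it with 50 CPM added and 166 with no interferon limit. Depth limits low genes most in Trp53-deleted ADT members, which held the fewest UMIs.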
